A study of Mus musculus with 58 samples.

Results

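The outer segment structure genes were 8 genes chosen by name, Prph2, Rom1, Prom1, Prcd, Rp1, Rp1l1, Cdhr1 and Fscn2, of the 52459 gene symbols in the count table, and all 8 passed the filter on low counts. RNA was read from single mouse retinas every 4 h from ZT1 to ZT21. ZT (zeitgeber time) counts hours from lights on, so ZT13 to ZT21 were in the dark. The diabetic retinas came from male mice heterozygous for Ins2Akita on C57BL/6, a mutation of insulin 2 under which the hormone misfolds and beta cells are lost, and the controls were male littermates without the mutation. The mutation is present in every cell of the animal, and the diabetic mice had consistently high blood glucose. All mice were 4 months old, had lived under 12 h of light and 12 h of dark from birth, were perfused with saline and were handled in dim red light at the night points. The control group held 5, 6, 5, 5, 5 and 4 libraries at the 6 times and the diabetic group 5, 5, 5, 4, 4 and 5, in all 30 and 28.

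The outer segment of a rod or cone is a modified cilium packed with flat membrane discs. New discs form at its base, and the pigment epithelium removes old discs from its tip every day, so that the whole stack is renewed all the time. Tetraspanins shape the rims of the discs, cadherin-like and pentaspan proteins sit where new discs are formed, microtubule-binding proteins run along the axoneme, and actin-bundling proteins act where the membrane folds out. Mutations of several of these genes cause inherited retinal degeneration.

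The promoters of the 3 genes whose level followed the time of day, Fscn2, Cdhr1 and Prcd, are shown because these were the genes of the 8 with a called daily cosine, Prcd in control retinas only. The windows are the 250 bases before the start of the RefSeq gene on GRCm38.p6, for Fscn2 chr11:120361284-120361533 on the plus strand, for Cdhr1 chr14:37098348-37098597 on the minus strand and for Prcd chr11:116656858-116657107 on the plus strand. Each is written in the direction of its gene, with matches to the searched letters in capitals.
Fscn2: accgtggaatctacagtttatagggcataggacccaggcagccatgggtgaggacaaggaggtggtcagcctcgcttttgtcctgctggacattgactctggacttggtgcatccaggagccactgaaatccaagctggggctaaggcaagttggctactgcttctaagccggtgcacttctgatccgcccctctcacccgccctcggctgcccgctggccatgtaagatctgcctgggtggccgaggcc
Cdhr1: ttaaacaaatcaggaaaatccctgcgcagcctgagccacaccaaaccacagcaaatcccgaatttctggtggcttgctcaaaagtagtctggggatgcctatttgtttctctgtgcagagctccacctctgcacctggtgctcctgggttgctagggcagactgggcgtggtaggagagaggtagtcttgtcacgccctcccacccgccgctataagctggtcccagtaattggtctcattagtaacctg
Prcd: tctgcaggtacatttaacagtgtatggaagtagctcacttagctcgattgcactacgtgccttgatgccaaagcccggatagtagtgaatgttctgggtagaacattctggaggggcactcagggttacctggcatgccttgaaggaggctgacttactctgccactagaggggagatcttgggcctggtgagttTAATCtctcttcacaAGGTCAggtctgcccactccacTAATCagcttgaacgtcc
Of the 8 genes, 6 matched the RefSeq table, with 7 windows, and 5 short motifs were searched on both strands. They were the homeobox site TAATCC, its core TAATC, which lies within TAATCC, the E-box CACGTG, the nuclear receptor half-site AGGTCA and the Maf half-site TGCTGAC. The core TAATC was added after the windows had been read and TAATCC had given no match. TAATCC occurred in 6.25% of 32851 promoter windows of this length, TAATC in 19.8%, CACGTG in 6.02%, AGGTCA in 14.0% and TGCTGAC in 3.81%. The Prcd window held TAATC starting 55 and 18 bases before the RefSeq start and AGGTCA starting 40 bases before it. This RefSeq start lies inside the Gencode gene of Prcd, which begins further upstream, at 116653534. Prph2 held TAATC on the plus strand 30 bases and, in reverse, 61 bases before its start, and 1 of 2 Prom1 windows held it 28 bases before the start. That Prom1 window, chr5:44094769-44095018 on the minus strand, also lies inside the Gencode gene, which begins further upstream, at 44102032. The other Prom1 window held no match. The windows of Fscn2, Cdhr1 and Rom1 held none of these letters. A match is a description of the sequence and not a measured binding site.

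The libraries held between 7773117 and 22147398 counted reads, with a median of 15406441. Levels are CPM, the counts of a gene relative to those of its library, scaled by the trimmed mean of M-values (TMM) of edgeR. Of 113 pairs of replicates none agreed within sampling noise, the lowest chi-square per degree of freedom being 1.94. The retinal labels held throughout, since the summed level of 10 rod markers was 38669 to 57776 CPM in control and 38229 to 52739 CPM in diabetic libraries. Of the 58 libraries, 3 control libraries stood apart by more than 1000 CPM of lens markers (ZT1 replicate 6, ZT17 replicate 5 and ZT21 replicate 2), and 5 by less than 1.1% of mitochondrial reads.

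Per kb of exon, the disc rim gene Prph2 was the highest of the 8 genes and ranked 14 of 18094 genes in the retina, with 1208 ± 96.9 CPM per kb (SD, n = 58). Its partner Rom1 followed at 897 ± 100.1 CPM per kb. Far below came Cdhr1 at 280.4 ± 29.2, Rp1 at 195 ± 29.2, Rp1l1 at 118 ± 9.94, Prom1 at 98.2 ± 7.43, Prcd at 91.6 ± 8.56 and Fscn2 at 51.2 ± 8.35 CPM per kb (SD, n = 58). Prom1 and Prcd lay closer together than their SD. All the other neighbours in this order were further apart than the larger of their SDs. Fscn2, the lowest, still ranked 465 of 18094.

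**Figure D1:**
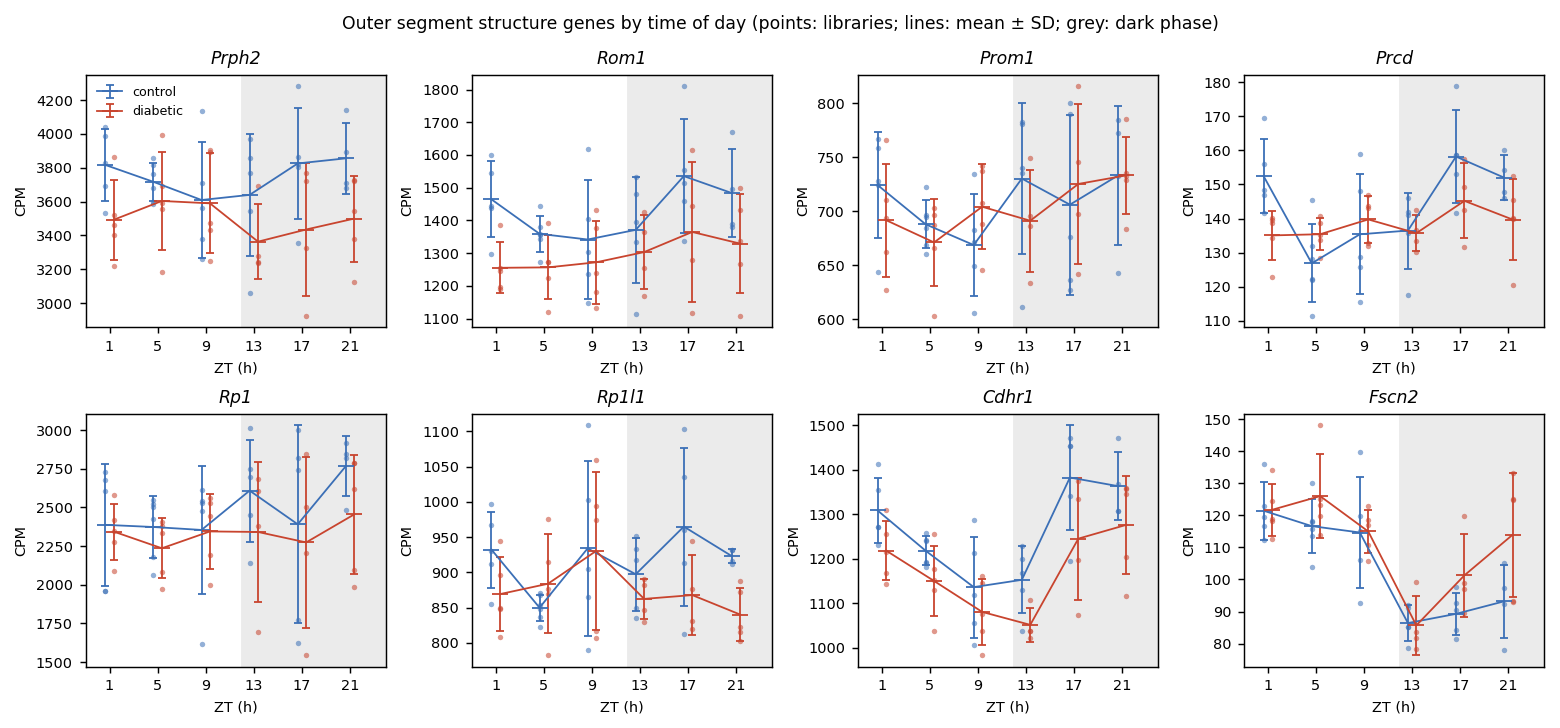
Level of the 8 genes (CPM, TMM scaled; y axes do not start at 0) against time of day (ZT, h) in control and diabetic retinas; points are libraries, lines join group means and bars are SDs of 4 to 6 libraries. Fscn2 drops to a mean of 86.4 CPM in control and 85.7 CPM in diabetic libraries at ZT13, while Cdhr1 and control Prcd have their highest means in the dark phase.

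Fscn2, which bundles actin filaments in photoreceptors, had the largest daily range of the 8 genes in both genotypes, and its level was high by day and low after lights off. The gene lies on chromosome 11 from 120361534 to 120368168, plus strand (Gencode M21 on GRCm38). In control retinas the libraries had 123, 117, 112, 119 and 136 CPM at ZT1, between 104 and 130.1 CPM with a median of 117 CPM at ZT5, and 106, 115, 92.7, 139.7 and 119.7 CPM at ZT9. After lights off they had 85.1, 78.5, 85.1, 92.1 and 91.1 CPM at ZT13, 92.7, 90.4, 97.8, 84.1 and 81.4 CPM at ZT17, and 105.0, 97.3, 78.1 and 92.3 CPM at ZT21. Of the 16 control libraries taken by day, 14 were above every 1 of the 14 taken at night. The ranges of ZT9 and ZT13 did not overlap in control retinas, whereas the night groups overlapped with each other.

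In diabetic retinas Fscn2 had 134, 113, 118, 119 and 124 CPM at ZT1, 125, 114, 119.8, 148 and 123 CPM at ZT5, and 117, 111, 123, 119 and 106 CPM at ZT9. It had 99.1, 81.9, 78.2 and 83.5 CPM at ZT13, 96.9, 119.8, 89.6 and 98.9 CPM at ZT17, and 125, 93.0, 133, 125 and 93.4 CPM at ZT21. Here ZT13 was low in all 4 libraries, whereas 3 of the 5 libraries at ZT21 were as high as those of the day, and only 2 of the 15 day libraries were above every night library. The mean fell from 118 ± 11.6 by day (SD, n = 16) to 89.4 ± 7.76 CPM at night (SD, n = 14) in control and from 121 ± 10.2 (n = 15) to 101 ± 18.3 CPM (n = 13) in diabetic retinas.

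The night minus day difference of Fscn2 was -0.39 ± 0.05 on the log2 scale (SE) in control retinas (adjusted p = 7.3e-07, edgeR) and -0.28 ± 0.06 in diabetic retinas (adjusted p = 0.000288, edgeR). It was the 1 gene of the 8 that was called in this comparison, in control retinas beside 8.11% of all 18814 genes tested and in diabetic retinas beside 14.3%. A cosine of 24 h gave a peak-to-trough range of 0.52 ± 0.08 log2 units in control, a fold of 1.44, with a peak at ZT4.13 ± 0.61 h (SE, adjusted p = 1.13e-05, edgeR). In diabetic retinas the range was 0.46 ± 0.09, a fold of 1.38, with a peak at ZT2.68 ± 0.68 h (adjusted p = 0.000349, edgeR). Without ZT13 the diabetic range was 0.32 and the call was lost (adjusted p = 0.0522).

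RPE markers, which tell of pigment epithelium attached to the retina, also moved with the time of day. The sum of the 12 markers had a median of 136 CPM by day and 186 CPM at night in control, and of 107 and 195 CPM in diabetic retinas. Each of the 12 was read in some library. By the night minus day test, 4 of the 12 rose in control and 7 in diabetic retinas, where 781 and 1295 of all 18814 genes rose. Of 8 Muller glia markers, 1 rose in control and 4 in diabetic retinas, and of 8 bipolar cell markers 5 and 6. The sum of the Muller glia markers was also higher at night, with medians of 3754 by day and 4148 CPM at night in control and of 3707 and 4078 CPM in diabetic retinas. The part of these cells in the daily results was not tested. In such bulk samples, fewer cells of a type and less RNA per cell cannot be told apart.

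Cdhr1, a cadherin-like protein at the base of the outer segment where discs form, was the other gene that was called in both genotypes, with its peak at night. It lies on chromosome 14 from 37077857 to 37098347, minus strand. In control retinas it had 1453, 1341, 1452, 1194 and 1471 CPM at ZT17, and 1308, 1306, 1366 and 1470 CPM at ZT21. At ZT9 it had 1007, 1118, 1056, 1286 and 1213 CPM and at ZT13 1229, 1036, 1168, 1199.5 and 1128 CPM. The ZT21 libraries were above all libraries of ZT9 and ZT13, and 4 of the 5 at ZT17 were as well.

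The diabetic libraries of Cdhr1 had 1355, 1117, 1359, 1345 and 1203 CPM at ZT21 and 1107, 1021, 1038 and 1038 CPM at ZT13, without overlap. The fitted range was 0.30 ± 0.06 log2 units in control with a peak at ZT21.0 ± 0.69 h (adjusted p = 0.000497, edgeR). It was 0.27 ± 0.06 in diabetic retinas with a peak at ZT21.8 ± 0.84 h (adjusted p = 0.00179, edgeR). The difference of night and day means was small, at 0.09 ± 0.04 in control and 0.05 ± 0.04 in diabetic retinas, and missed the threshold in both (adjusted p = 0.169 and 0.477, edgeR). ZT13, the first night point, was among the low times of this gene.

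Prcd, a small protein of disc membranes, had a daily range in control retinas. The gene lies on chromosome 11 from 116653534 to 116668389, plus strand, and shares 201 bp of exon with Cygb on the opposite strand. It is not stated whether strand was used in counting, so reads of these bases cannot be assigned with certainty, and the mean count of Cygb was 1638 against 2107 for Prcd. The control libraries had 159, 153, 179, 159 and 142 CPM at ZT17 and 169, 148, 142, 147 and 156 CPM at ZT1. At ZT5 they were between 111 and 145 CPM, with a mean of 127 ± 11.5 (SD, n = 6), and the ranges of ZT5 and ZT17 overlapped by the highest library of ZT5.

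The range of the Prcd cosine was 0.30 ± 0.06 log2 units in control, with a peak at ZT19.7 ± 0.74 h (adjusted p = 0.000946, edgeR). Without replicate 3 of every group the control range was 0.225 and the call was lost (adjusted p = 0.0666, edgeR). In diabetic retinas the range was 0.07 ± 0.06 (adjusted p = 0.726, edgeR). There the group means lay between 135.0 CPM at ZT1 and 145 CPM at ZT17, and all neighbours in the order of means were closer than the larger SD. The diabetic cosine minus the control cosine had a range of 0.26 ± 0.08 log2 units, with an unadjusted p of 0.0126 and an adjusted p of 1.00 (edgeR). At ZT1 the 5 diabetic libraries, at 140.1, 134, 140, 139 and 123 CPM, lay below all 5 control libraries. Of the 48 pairs of gene and time point, this and Rp1l1 at ZT21 were the 2 in which the ranges of the genotypes did not overlap, beside 1.32% of the pairs over all genes.

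**Figure D2:**
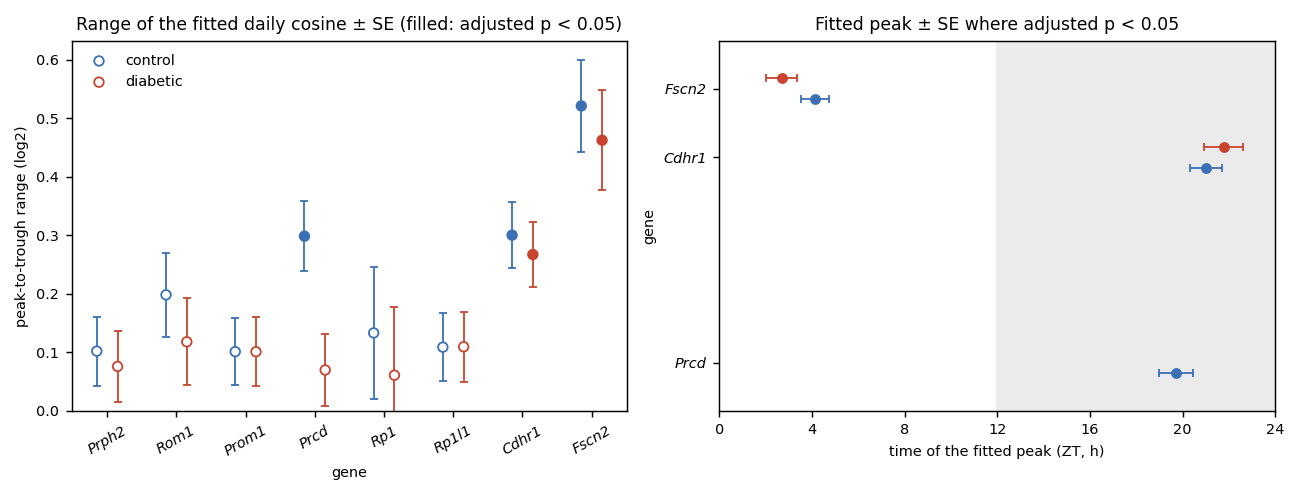
Left, peak-to-trough range of the fitted 24 h cosine (log2 units ± SE) of each gene in control and diabetic retinas, filled where the adjusted p was under 0.05; right, time of the fitted peak (ZT, h ± SE) for the filled points. Fscn2 peaks by day at ZT4.13 and ZT2.68, and Cdhr1 and control Prcd between ZT19.7 and ZT21.8.

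In all, the cosine was called for 3 of the 8 genes in control retinas, beside 12.5% of all genes, and for 2 of 8 in diabetic retinas, beside 14.5%. The median range of the 8 genes was 0.17 in control and 0.11 log2 units in diabetic retinas, against 0.20 and 0.21 for all genes tested. A range is never below 0 and grows with noise. Without the filter on low counts the median of all genes was 0.38 in both genotypes. The comparison with these abundant 8 genes therefore does not show that they are less rhythmic. A re-written rank test, with an unadjusted p under 0.05 and a minimum fold between the highest and the lowest library, called the same 3 and 2 genes, where it called 21.9% and 23.9% of all expressed genes. The study set its minimum on a predicted fold, which this fold between libraries does not reproduce and which can be smaller. Between the highest and lowest group mean the fold of Fscn2 was 1.41 in control and 1.47 in diabetic retinas, above that minimum, whereas those of Cdhr1, 1.22 and 1.21, and of control Prcd, 1.247, were below it. Prph2, Rom1, Prom1, Rp1 and Rp1l1 were not called in either genotype, although Rp1l1 passed in diabetic retinas with library totals only (range 0.17, adjusted p = 0.0311). Their ranges lay between 0.10 and 0.20 in control and between 0.06 and 0.12 log2 units in diabetic retinas. Rom1 in control had the largest of these, at 0.20 ± 0.07 with an adjusted p of 0.133 (edgeR), which passed at 0.0377 without control ZT9 replicate 4.

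A difference of the cosine between the genotypes was called for 0 of the 8 genes and for 0 of the 18814 genes tested (0%). At an unadjusted p under 0.05 there were 654 genes by edgeR, of which Prcd was the 1 member, and DESeq2 also called 0 genes after adjustment. Over all genes there were 10 calls with the replicate number as a block, 10 without ZT1, 3 without a filter on low counts and 2 without ZT17, none of them among the 8.

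Rom1 and Prph2 are tetraspanins that join in complexes at the disc rim, and both were lower in diabetic retinas at 6 of 6 time points by their means. Prph2 lies on chromosome 17 from 46910459 to 46924933, plus strand, and Rom1 on chromosome 19 from 8927391 to 8929356, minus strand. Rom1 had 1115 CPM in the lowest, 1400.5 in the median and 1811 in the highest of 30 control libraries, and 1109, 1271 and 1617 CPM in those of 28 diabetic libraries. The ranges overlapped almost fully, and the shift was in the mean, from 1422 ± 148 to 1294 ± 128 CPM (SD). Over all time points Rom1 fell by 0.14 on the log2 scale (SE 0.04), a difference of -8.98% (adjusted p = 0.0333, edgeR).

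It was the 1 gene of the 8 that was called over all time points, beside 3.11% of all genes tested in either direction and 1.45% called lower. Without the 3 libraries with lens reads the difference was -0.13 and missed the threshold (adjusted p = 0.0557). The call was also lost without a filter on low counts (0.0595) and without replicate 2, 4 or 5 of every group (0.0743, 0.180 and 0.194). Of 9 lens markers 1 was at 0 in every library and 5 of the 8 tested fell, their sum being 0.439 to 3031 CPM in control and 0.639 to 71.5 CPM in diabetic libraries. Values of photoreceptor markers stand beside it. Of the 10 rod markers 1 fell, Pde6a, a subunit of the rod phosphodiesterase (-0.09 ± 0.03, adjusted p = 0.0471, edgeR), with a list median of -0.09. This call was lost without the lens libraries (adjusted p = 0.0989), without the libraries with few mitochondrial reads (0.0554), with the replicate number as a block (0.0563), without a filter on low counts (0.118) and in 20 of 64 fits that left out a library or replicate number. Of the 8 cone markers 3 fell, with a median of -0.12, namely Pde6h (-0.14 ± 0.03), Gnat2 (-0.12 ± 0.03) and Pde6c (-0.12 ± 0.03), which serve cone phototransduction. Pde6h kept its call in every alternative fit run and Gnat2 in all but 2 of the 64 left-out fits. Pde6c lost it without the lens libraries (adjusted p = 0.0586), with library totals only (0.0935), without a filter (0.0632) and in 19 of the 64. The summed rod level had a median of 46671 CPM in control and 44545 CPM in diabetic retinas, and its part in the result of Rom1 was not tested.

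Prph2 had 3058, 3766 and 4283 CPM in the lowest, median and highest control library, and 2925, 3497 and 3994 CPM in the diabetic ones. Its difference was -0.09 ± 0.03 with an adjusted p of 0.0713 (edgeR), which DESeq2 put at 0.0338. The ratio of Rom1 to Prph2, each per kb, was 0.751 ± 0.0323 in control (SD, n = 30) and 0.731 ± 0.0479 in diabetic libraries (SD, n = 28), a difference smaller than either SD. Cdhr1 was also lower at 6 of 6 time points, with a difference of -0.10 ± 0.04 (adjusted p = 0.151, edgeR), which passed at 0.0131 when time was added to the model.

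**Figure D3:**
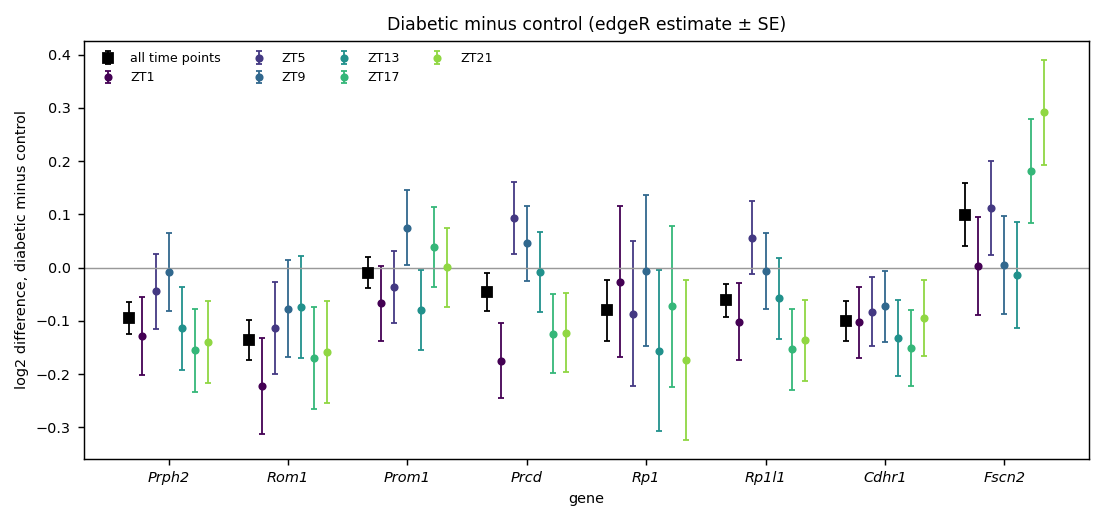
Diabetic minus control difference of each gene (log2, edgeR estimate ± SE) over all time points (black squares) and at each time point (coloured circles). Rom1 has the lowest value over all time points at -0.14, and Fscn2 alone lies above 0 there, at 0.10.

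The other genes with a value below 0 were not called. Rp1, a microtubule-binding protein of the axoneme on chromosome 1 from 3999557 to 4409241 on the minus strand, differed by -0.08 ± 0.06. The mean of Rp1 was also lower at 6 of 6 time points. Its relative Rp1l1, on chromosome 14 from 63992506 to 64035025 on the plus strand, differed by -0.06 ± 0.03. Prcd differed by -0.05 ± 0.03. Prom1, a pentaspan protein of new disc membranes on chromosome 5 from 43993620 to 44102032 on the minus strand, differed by -0.01 ± 0.03 and shares 424 bp of exon with the antisense gene Gm16401, whose mean count was 29.8 against 10490.0 for Prom1. The adjusted p of these 4 genes lay between 0.327 and 0.940 (edgeR).

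Fscn2 was the single gene of the 8 with a higher value in diabetic retinas, at 0.10 ± 0.06 (adjusted p = 0.439, edgeR). By day the difference was 0.00 ± 0.09 for ZT1, 0.11 ± 0.09 for ZT5 and 0.01 ± 0.09 for ZT9. By night it was -0.01 ± 0.10 for ZT13, 0.18 ± 0.10 for ZT17 and 0.29 ± 0.10 for ZT21. The value at ZT21 was the largest of the 48 differences by gene and time, with an unadjusted p of 0.00451 and an adjusted p of 0.652 (edgeR). With libraries left out it fell as low as 0.15, without replicate 3 of both genotypes, and the value at ZT17 was 0.09 without diabetic ZT17 replicate 3. The ranges at ZT21 overlapped, with 78.1 to 105 CPM in control and 93.0 to 133 CPM in diabetic retinas.

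At single time points 0 of the 48 differences were called by edgeR, 5 had an unadjusted p under 0.05, beside 5.69% of such values over all genes, and DESeq2 called 0 as well. Of the 5, 2 were at ZT1 and 2 at ZT17, where 1033 and 1682 of all 18814 genes had such a p. Over all genes the called share was 0% at both ZT13 and ZT21. It was 0.0106% for ZT1, 0.0213% for ZT5 and 0.00532% for ZT9, and was highest for ZT17 with 0.175%. At ZT13 and ZT21, 843 and 878 genes had an unadjusted p under 0.05 by edgeR, and DESeq2 called 1 and 8. Of the 48 values 37 were below 0, including all 8 at ZT13, beside 49.2% of the values over all genes. The 8 genes were read in the same libraries and are correlated, so these are not 48 separate observations. At ZT13 the values of Prcd and Fscn2 were both -0.01, with SEs of 0.07 and 0.10. For Rp1l1 at ZT21 the control libraries had 916, 931, 912 and 932 CPM and the diabetic ones 888, 803, 872, 815 and 823 CPM. The ranges did not overlap, the control SD of 10.2 CPM was the smallest of that gene, and the difference of -0.14 ± 0.08 had an adjusted p of 1.00 (edgeR).

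Beyond the groups, the 8 genes split by how they varied from library to library. Over deviations of the 58 libraries from their group means, Prph2 and Rom1 had a Pearson correlation of 0.93, and Cdhr1 had 0.82 with Prph2 and 0.83 with Rom1. Rp1 and Prom1 went together at 0.62, and each had a negative value with all of the other 6 genes, down to -0.53 for Rp1 and Rom1. These points share the library, its depth and its scaling, so the values only describe the libraries.

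**Figure D4:**
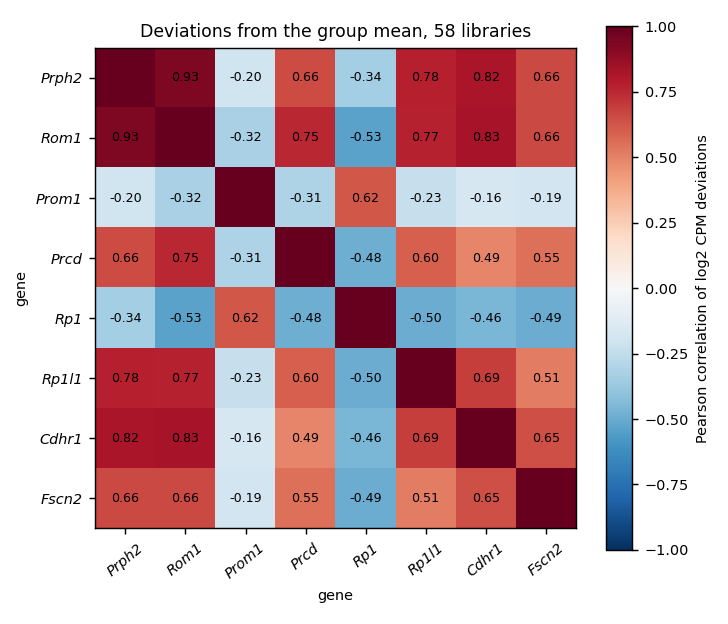
Pearson correlation, over 58 libraries, of the deviations of log2 CPM from the group mean for each pair of the 8 genes. Prph2 and Rom1 are at 0.93, while the columns of Prom1 and Rp1 are negative with the other 6 genes and at 0.62 with each other.

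The 5 libraries with under 1.1% of mitochondrial reads were control ZT9 replicate 4, control ZT17 replicates 1 and 3, diabetic ZT13 replicate 5 and diabetic ZT17 replicate 3. They had the 5 lowest values of Rp1, with 1618, 1773, 1626, 1694 and 1545 CPM, where the other 53 libraries had 1957 to 3012 CPM. Rp1 has the longest exon union of the 8 genes, 12311 bp, which is not the length of a transcript. In the same 5 libraries Rom1 was higher, with a mean of 1605 against 1337 CPM, and so were Rp1l1, at 1017 against 885 CPM, and Prcd, at 159 against 139 CPM. Prom1 was lower, at 641 against 711 CPM. These means pool times and genotypes, and ZT17 libraries of both genotypes were among the 5. The whole control ZT17 group had means of 1535 CPM for Rom1, 965 for Rp1l1 and 158 for Prcd. The mitochondrial share was thus not separated from time of day or genotype. Without these 5 libraries Rom1 differed by -0.13 between the genotypes (adjusted p = 0.0183, edgeR), and Fscn2 by -0.39 in control and -0.31 in diabetic retinas between night and day, so both calls were kept.

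**Figure D5:**
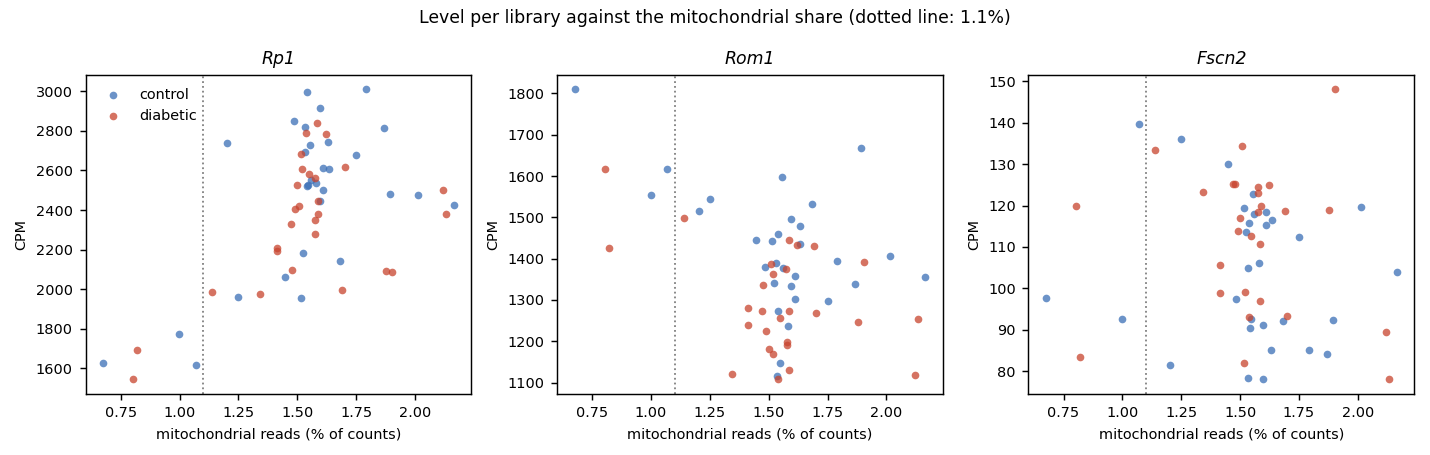
Level of Rp1, Rom1 and Fscn2 (CPM) in each of the 58 libraries against its share of mitochondrial reads (% of counts), with a dotted line at 1.1%. The 5 libraries left of the line hold the 5 lowest Rp1 values, 1545 to 1773 CPM, while Fscn2 lies between 83.5 and 139.7 CPM there.

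The genes whose group means followed each of the 8 most closely were found over 12 group means of log2 CPM among 11300 genes, which share libraries and scaling. Cdhr1 was followed by Impg1, a proteoglycan of the matrix around photoreceptors (Pearson 0.99), and by Pdia3 (0.95). Fscn2 was followed by R3hcc1 (0.96) and Usp39 (0.92), Prcd by Pef1 (0.95) and Tex261 (0.95), and Rom1 by Tpt1 (0.99) and Guk1 (0.97). Prph2 was followed by Slc39a3 (0.92) and Dnajb11 (0.91) and Prom1 by Entpd5 (0.89) and Fam171b (0.88). Rp1 was followed by Ipcef1 (0.92) and Tmem230 (0.91) and Rp1l1 by Hars (0.92) and Timm29 (0.92). These are the 2 highest of 11300 values for each gene, and over the 58 single libraries the same pairs were lower. There they lay between 0.395 for Fscn2 and R3hcc1 and 0.873 for Cdhr1 and Impg1, with 0.533 for Fscn2 and Usp39 and 0.582 for Prcd and Pef1.

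Other genes of the outer segment were counted from 3 lists. Of 11 genes of disc and plasma membrane, the cosine was called for 4 in control and 2 in diabetic retinas, beside 12.5% and 14.5% of all genes. Among them the cone opsin gene Opn1sw had a range of 0.38 ± 0.08 in control and 0.62 ± 0.08 in diabetic libraries. It peaked at ZT21.3 and ZT21.2, close to Cdhr1. Rdh8, a retinol dehydrogenase of the outer segment, had 0.32 ± 0.06 in control and a peak at ZT18.7. The control call of Opn1sw was lost without ZT21 (adjusted p = 0.0628) and that of Rdh8 without ZT17 (0.174). Of these 11 genes 1 fell in diabetic retinas over all time points, beside 3.11% of all genes called in either direction and 1.45% called lower. It was the lipid transporter Abca4 of disc rims (-0.08 ± 0.02, adjusted p = 0.0394, edgeR). The list median was -0.07 against 0.00 for all genes. The call of Abca4 was lost without the lens libraries (adjusted p = 0.0742), without a filter on low counts (0.10) and in 10 of 64 left-out fits.

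Of 26 genes of the connecting cilium and axoneme, the cosine was called for 9 in control and 6 in diabetic retinas, beside the same 12.5% and 14.5% of all genes. Between the genotypes 0 were called by edgeR, beside 3.11% of all genes, and 4 had an unadjusted p under 0.05, beside 15.5%. Nphp4, a protein of the ciliary transition zone, had a range of 0.67 ± 0.08 in control and 0.58 ± 0.08 in diabetic libraries and peaked at ZT18.3 and ZT17.7.

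Of 14 tested genes of the calyceal process and actin, 4 had a called cosine in each genotype, beside 12.5% and 14.5% of all genes. BC027072, an actin-associated gene of the photoreceptor, had 0.62 ± 0.10 in control and 0.72 ± 0.11 in diabetic retinas, with peaks at ZT5.60 and ZT5.30, in the same part of the day as Fscn2. Whrn, a scaffold protein, had 0.80 ± 0.10 and 0.67 ± 0.11 and peaks at ZT18.3 and ZT17.7, and the cadherin Pcdh15 had 0.60 ± 0.09 and 0.62 ± 0.09 and peaks at ZT11.3 and ZT11.2.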

How the data were processed

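Retinal RNA of 58 libraries was analysed. The authors mapped the reads with STAR 2.7.4a to GRCm38.p5 with Gencode M15 and counted them with HTSeq 0.11.1, and the deposited table holds these raw counts per gene symbol, not normalized and not filtered. Each column was assigned by its label. From the counts, 18814 of 52459 genes passed filterByExpr on the 12 groups, and were scaled by TMM and tested with the quasi-likelihood test of edgeR 4.0.16 (R 4.3.3), with Benjamini-Hochberg adjustment over all genes and a threshold of 0.05. The genotypes were compared in 1 fit with 2 groups, time points and night (ZT13 to ZT21) against day (ZT1 to ZT9) in 1 fit with 12 groups, and daily patterns with a cosine of 24 h per genotype. DESeq2 1.42.0 and a re-written empirical JTK_CYCLE test with 200000 shuffles, a median count above 4 and the fold taken between single libraries were alternatives. Refits that left out libraries kept the dispersion trend of all 58. Depth limits low genes, while the members had at least 811 reads in each library. Lengths are exon unions of Gencode M21. The scripts were tested on simulated data.

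All 8 members were named, with, for each, the 2 genes most alike in 12 group means (mean count of at least 100) and, for each gene list, up to 3 genes with the smallest adjusted p under 0.05, of which the text gives a selection. Some results of these lists are not reported here. The members and the lists were chosen with earlier results of these data known. P-values measure the spread between these libraries.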

Additional observations from a re-analysis of the deposited data

Results flagged for a closer look

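Of 96 groups of libraries, 8 genes in 12 groups, 3 held 1 library far from the others by Dixon's test, which by chance picks about 1 in 20 groups. For Rp1, control ZT9 replicate 4 had 1618 CPM where the other 4 had 2475 to 2610 CPM, and it is 1 of the 5 libraries with under 1.1% of mitochondrial reads. For Prom1, control ZT13 replicate 4 had 611 CPM where the other 4 had 736 to 783 CPM. For Prph2, diabetic ZT13 replicate 1 had 3693 CPM where the other 3 had 3235 to 3280 CPM.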

How the results depend on the processing

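Over all time points, 1 of the 8 genes was called between the genotypes, and this count was the least stable of those reported. It was 2 with upper-quartile factors, with library totals only and with DESeq2, where Prph2 was added, and 2 with ZT as an additive factor, where Cdhr1 was. It was 0 without a filter on low counts and 0 without the libraries over 1000 CPM of lens markers, an alternative chosen after seeing the data, as was leaving out the libraries with few mitochondrial reads. With each library or each replicate number left out the count lay between 0 and 2. It was 0 without replicate 2, 4 or 5. Prph2 was added (adjusted p from 0.0265 to 0.0491) without any 1 of control ZT9 replicates 1 and 3, control ZT13 replicate 2, control ZT17 replicate 4, diabetic ZT1 replicate 1, diabetic ZT5 replicate 4, diabetic ZT9 replicate 3 and diabetic ZT17 replicate 3. The difference of Rom1 stayed below 0 in all of these, between -0.15 and -0.12.

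The daily cosine called 3 genes in control retinas, and between 2 and 4 with libraries left out, where Prcd was lost without replicate 3 (adjusted p = 0.0666). In diabetic retinas it called 2 genes, 1 without ZT13 and 3 with library totals only, where Rp1l1 was added. Night against day in control retinas called 1 gene, and 1 to 2 with libraries left out, where Prcd was added without control ZT5 replicate 5, control ZT9 replicate 4 or control ZT13 replicate 2 and without replicate 5 (adjusted p = 0.0288). In diabetic retinas it called 1 gene, and 3 with library totals only, where the median of all genes moved to -0.06. Under that scaling the sign of night minus day turned for genes that were not called, to -0.0274 for Prph2 and -0.0117 for Rp1l1 in control retinas and to -0.0014 for Prom1, -0.0234 for Prcd, -0.0229 for Rp1 and -0.0108 for Cdhr1 in diabetic retinas. Prom1 between the genotypes turned to 0.0029 without the lens libraries and ranged from -0.0187 to 0.00696 with libraries left out. Likewise Prph2 between night and day ranged from -0.0181 to 0.0461 in control and Rp1 from -0.0259 to 0.0935 in diabetic retinas. The cause of these changes was not tested.

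With the replicate block the counts were 1 between the genotypes, 0 at single time points, 3 and 2 for the cosine, 0 for its difference and 1 and 1 for night against day, so no call changed for the 8 genes. Over all genes the replicate block moved the calls between the genotypes from 586 to 507 and those of the cosine difference from 0 to 10. Equal replicate numbers deviated together with a correlation over 0.1 in 21 of 26 pairs but not in all, with a median of 0.302. The values ran from -0.494 to 0.819, so the numbers were not taken to pair the libraries. Of 52 libraries, 26 correlated best with their own number, out of the 4 to 6 libraries of the other genotype at that time. This is a hint from the data, not from the design.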
